A study of Gossypium hirsutum with 17 samples.

Results

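A group of 9 probe sets of the Affymetrix Cotton Genome Array carries the names of enzymes that take starch apart, and their levels are described here across 6 growth conditions of upland cotton (Gossypium hirsutum) seedlings. The 9, of 24029 that measure cotton transcripts on the array, were taken by name: a pair for alpha-glucan water dikinase 1 (GWD1), a pair for phosphoglucan water dikinase (PWD), 1 for a SEX4-like protein, 1 for the beta-amylase CT-BMY, a pair for the phosphorylase PHS2 and 1 named alpha-glucan phosphorylase isozyme H. They stand for 6 named proteins. They were chosen by the signals of these same arrays, since the study had listed 6 of them as raised by each of the 5 stresses and the PWD and CT-BMY probe sets as raised by ABA at least, so that their levels in stress against control are given as a description and are not a test.

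Seedlings were grown on MS medium and harvested whole 14 days after germination. The 5 stresses were set against a control grown at 25 °C: 1 μM ABA, the hormone of water deficit, cold at 4 °C for 2 days after 8 days at 25 °C, 200 mM mannitol as a drought treatment, 200 mM NaCl as a salinity treatment, and medium at pH 11 as an alkalinity treatment. ABA, mannitol, NaCl and pH lasted 10 days, and the medium of the ABA, cold, mannitol and NaCl seedlings was at pH 5.8. ABA, cold, mannitol, NaCl and control had 3 arrays each and pH had 2, 17 in all. Since whole seedlings were used, fewer cells of a type and less RNA per cell cannot be told apart. The labels call each array a biological replicate, whereas the study's methods describe pools of RNA over the replicates of each treatment, so that SD, SE and p measure the spread between arrays, which may be technical.

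In Arabidopsis, from which these names come, leaf starch is built by day and broken down by night inside the chloroplast. GWD1 (also called SEX1) adds phosphate to the surface of the starch granule, PWD adds phosphate to glucans that GWD1 has already marked, and the starch phosphatase SEX4 acts on these phosphate groups. Beta-amylases then release maltose, isoamylase ISA3 removes branches, and a phosphorylase of the plastid, PHS1, releases glucose as its phosphate. The phosphorylase PHS2 works in the cytosol, on glucans that take up glucose from exported maltose. The names of the cotton probe sets rest on similarity of the array's target sequence to an Arabidopsis protein and not on any assay of the cotton enzyme.

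The arrays themselves differed in 3 ways that bear on these transcripts. The deposited signals of the 8 arrays of ABA, mannitol and pH shared a trimmed mean of 500.1, while that of the other 9 arrays lay between 18.5 and 140, so that for ABA, mannitol or pH against control, cold or NaCl the scale and the treatment cannot be told apart. Log2 signals were quantile normalized to a common distribution, with a median of 6.04 and a lower quartile of 4.07. NaCl replicate 2 lay closest to cold replicate 2 (r 0.941 over all probe sets) and not to its own group. NaCl replicate 3 also lay closest to an array outside its group, control replicate 3 (r 0.924). NaCl replicate 1, closest to NaCl replicate 3 (r 0.856), had a median deposited signal of 5.38, against 37.3 in NaCl replicate 3. RNA quality, read from the log2 ratio of the 3′ and 5′ actin probe sets, also differed, and its part in the results was not tested. This ratio was 4.46 to 5.31 in ABA, 2.85 to 3.97 in mannitol, 2.69 to 7.22 in cold, 4.45 to 4.46 in pH, 2.70 to 4.79 in NaCl and 2.78 to 3.05 in control. A single probe set of green tissue was named (photosystem II 44 kDa protein), at 6.80 to 8.65 in pH and 5.80 to 6.57 in control, and none of seed storage or embryo, so that the mix of tissues could not be checked further.

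GWD1, which starts starch breakdown, gave the highest levels in ABA. For the probe set of a G. hirsutum sequence (Ghi.1441.1.S1_s_at), the log2 signals of replicates 1 to 3 were 11.90, 11.77 and 11.30 in ABA, 10.33, 10.25 and 10.10 in mannitol, 9.23, 9.19 and 9.62 in cold, 10.00 and 9.68 in pH, 8.30, 9.48 and 8.04 in NaCl, and 7.28, 6.19 and 7.19 in control. No array of a stress overlapped with control, and the ABA arrays lay above those of each other stress. The log2 difference from control was 4.77 ± 0.37 (SE) in ABA, a fold of 27.3, and 3.34 in mannitol, 2.46 in cold, 2.95 in pH and 1.72 in NaCl. The second probe set, from a G. raimondii sequence (Gra.1742.1.A1_s_at), was read at a lower level but in a similar order. It stood at 9.16, 8.84 and 8.71 in ABA, 7.76, 7.71 and 7.52 in mannitol, 7.0, 7.26 and 7.83 in cold, 7.14 and 7.23 in pH, 4.71, 7.18 and 5.85 in NaCl, and 4.85, 3.83 and 4.70 in control. Here NaCl replicate 1 fell within the control range, and no other stressed array did so. Its differences from control were 4.44 in ABA, 3.20 in mannitol, 2.90 in cold, 2.73 in pH and 1.45 in NaCl. Over the 17 arrays the pair had r 0.967, and the sequences of both match the same Arabidopsis protein.

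PWD, which acts on glucans already phosphorylated by GWD1, showed a flatter profile over ABA, cold, mannitol and pH. The brighter of its probe sets had log2 signals of 9.01, 9.30 and 9.10 in ABA, 9.58, 9.28 and 9.57 in mannitol, 9.29, 8.88 and 9.13 in cold, 9.46 and 9.27 in pH, 7.67, 9.10 and 7.86 in NaCl, and 6.89, 6.80 and 6.50 in control. The ABA, cold, mannitol and pH arrays overlapped with one another, and NaCl replicates 1 and 3 lay between them and control. Its differences from control were 2.40 ± 0.31 (SE) in ABA, 2.75 in mannitol, 2.37 in cold, 2.64 in pH and 1.48 in NaCl. The dimmer one, of the same sequence cluster, was at 6.25, 6.92 and 6.55 in ABA, 6.82, 5.93 and 6.82 in mannitol, 6.93, 6.56 and 7.20 in cold, 6.90 and 6.49 in pH, 4.85, 6.66 and 4.21 in NaCl, and 3.71, 3.66 and 3.21 in control. The control signals of this probe set lay below the lower quartile of all signals. Its differences were 3.05 in ABA, 3.00 in mannitol, 3.37 in cold, 3.17 in pH and 1.72 in NaCl. The IDs of the PWD pair give the same sequence but differ in the strand tag, S1 for the brighter and A1 for the dimmer. Which of the pair reads the PWD transcript was not tested.

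The SEX4-like probe set (Ghi.8745.1.A1_at) was the one whose pH level lay nearest to control. Its target matches an Arabidopsis phosphatase-like protein known as LSF1, a relative of the starch phosphatase SEX4 and not SEX4 itself. The log2 signals were 7.40, 7.68 and 7.25 in ABA, 7.95, 7.63 and 8.00 in mannitol, 7.57, 6.15 and 6.68 in cold, 5.41 and 6.26 in pH, 6.31, 6.21 and 6.38 in NaCl, and 5.09, 5.07 and 5.13 in control. Every stressed array lay above control, the 3 control arrays lay close together, and pH replicate 1 was the lowest of the stressed arrays. The differences from control were 2.35 ± 0.32 (SE) in ABA, 2.77 in mannitol, 1.71 in cold, 0.74 (95% interval -0.03 to 1.51) in pH and 1.2 in NaCl. Its 3 NaCl arrays lay close together, unlike those of most of the other probe sets.

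The beta-amylase CT-BMY (Ghi.4227.1.S1_s_at), a chloroplast enzyme that releases maltose and is known in Arabidopsis for its rise in cold, showed the smallest differences of the 9 in ABA, mannitol and NaCl. Its log2 signals were 8.78, 8.16 and 7.92 in ABA, 8.09, 7.71 and 7.67 in mannitol, 9.0, 8.53 and 8.79 in cold, 7.62 and 8.58 in pH, 6.24, 8.90 and 6.14 in NaCl, and 7.51, 5.82 and 7.44 in control. The ABA, cold, mannitol and pH arrays all exceeded the highest control array, but by little in mannitol and pH, and NaCl replicates 1 and 3 lay inside the control range. The difference was highest in cold, at 1.85 ± 0.64 (SE), and was 1.36 in ABA, 0.90 in mannitol, 1.18 in pH and 0.17 in NaCl. None of these passed both thresholds in the fit described below. Control replicate 2 was low, and without it the NaCl difference was -0.38. Without NaCl replicate 2 the NaCl difference was -0.74, and the differences in cold and ABA, at 1.85 and 1.36, passed both thresholds.

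Both PHS2 probe sets, for the phosphorylase of the cytosol, were highest in ABA and mannitol. The one named ATPHS2 (Ghi.5148.1.S1_x_at) had log2 signals of 7.73, 8.47 and 8.68 in ABA, 8.47, 7.96 and 8.65 in mannitol, 6.69, 7.56 and 7.71 in cold, 7.12 and 8.00 in pH, 6.62, 6.75 and 6.54 in NaCl, and 2.96, 4.40 and 4.23 in control. The stressed and control arrays lay far apart, and the 3 NaCl arrays lay closer together than those of the other stresses. The differences were 4.43 ± 0.42 (SE) in ABA, 4.5 in mannitol, 3.45 in cold, 3.70 in pH and 2.78 in NaCl. The second, named starch phosphorylase (Gra.1008.2.A1_s_at) and similar to the same Arabidopsis protein, was at 7.44, 7.70 and 7.74 in ABA, 7.76, 7.48 and 7.83 in mannitol, 7.02, 6.98 and 7.10 in cold, 6.70 and 7.13 in pH, 6.20, 6.73 and 6.34 in NaCl, and 4.73, 5.16 and 4.8 in control. Its differences were smaller, at 2.73 in ABA, 2.79 in mannitol, 2.13 in cold, 2.02 in pH and 1.52 in NaCl. Over the 17 arrays the pair had r 0.976.

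The last of the 9 (Ghi.10692.1.S1_s_at) carried the largest differences of all, but the weakest name. The study's table calls it isozyme H of alpha-glucan phosphorylase, an enzyme of the same type as PHS2, whereas the array's own target description gives a weak similarity to an Arabidopsis protein of unknown function that is not PHS2. The log2 signals were 10.66, 11.25 and 12.02 in ABA, 12.71, 12.20 and 12.48 in mannitol, 11.34, 12.16 and 11.98 in cold, 12.64 and 12.78 in pH, 7.45, 12.11 and 6.73 in NaCl, and 5.29, 4.21 and 5.78 in control. NaCl replicate 2 read as high as the other stresses while replicates 1 and 3 lay 4.66 or more below it. The differences were 6.22 ± 1.01 (SE) in ABA, 7.37 in mannitol, 6.73 in cold, 7.61 in pH, a fold of 196, and 3.67 in NaCl, a fold of 12.7. Its mean lay at the 99.8th percentile of all probe sets in pH and at the 37.6th in control. Counts below are given with and without this probe set.

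**Figure D1:**
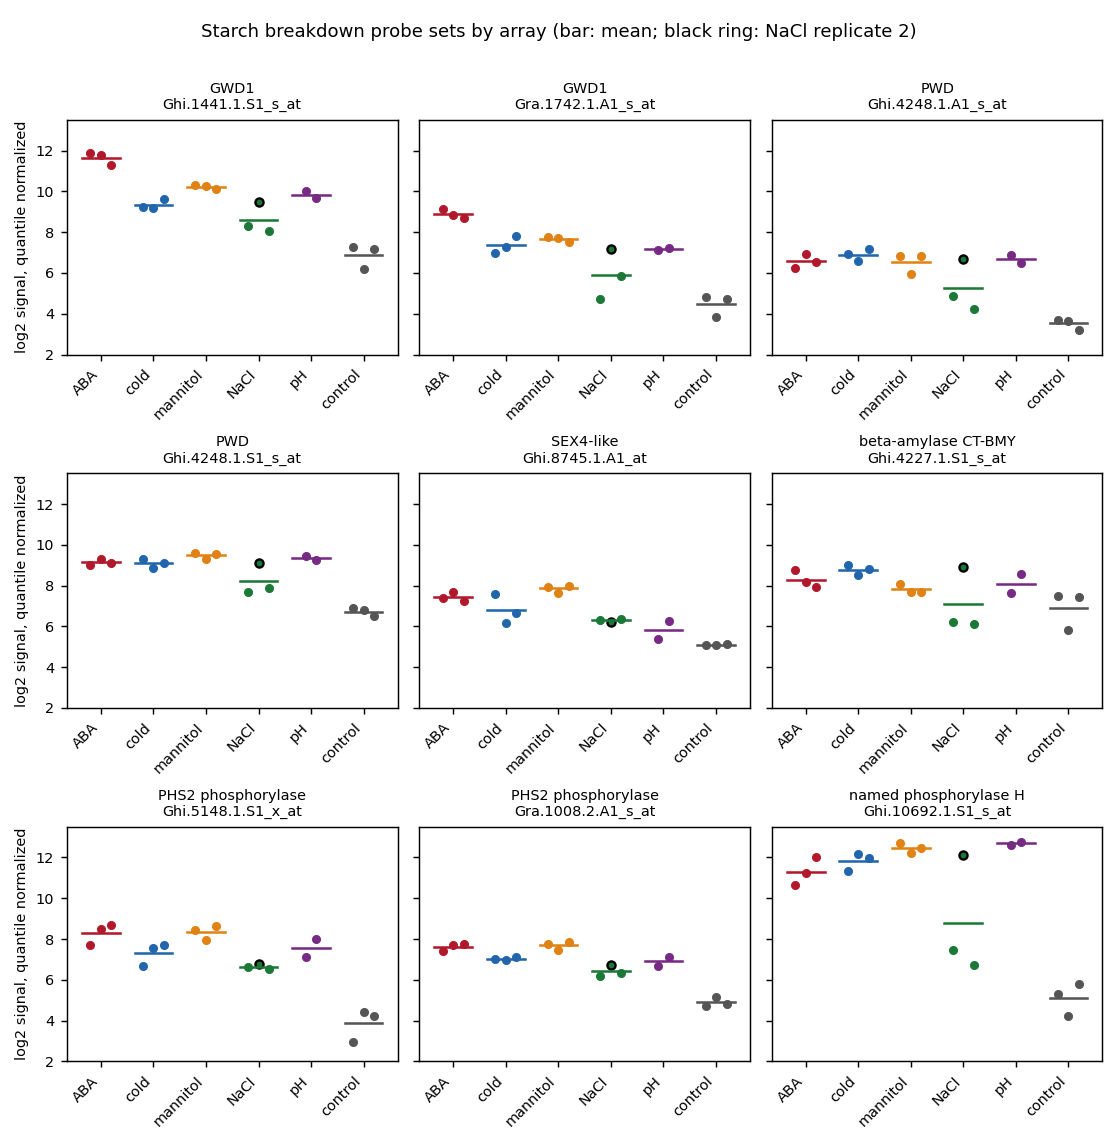
Log2 signal after quantile normalization (y axis) of the 9 probe sets in each array, by condition (x axis), with 3 arrays per condition and 2 for pH. Points are arrays, bars are means and the black ring marks NaCl replicate 2, which is the highest NaCl array for 8 of the 9 probe sets.

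Set against control in 1 limma fit to the 17 arrays, a call needed a 2-fold difference or more and an adjusted p of 0.05 or less (Benjamini-Hochberg over all 24029). Of the 9, 8 were called up in ABA, where 11.8% of all probe sets were, 8 in mannitol, where 11.9% were, 8 in cold, where 5.66% were, 7 in pH, where 11.7% were, and 2 in NaCl, where 0.466% were. None was called down, where 10.3% of all probe sets were in ABA, 10.9% in mannitol, 5.48% in cold, 10.4% in pH and 0.229% in NaCl. Without the probe set named isozyme H, 7 of 8 were called up in each of ABA, mannitol and cold, 6 in pH and 2 in NaCl. The rule took the probe sets from these contrasts, so nothing is read from these shares. The probe set that was not called in ABA, cold and mannitol was CT-BMY (adjusted p = 0.136, 0.0754 and 0.331, limma), in pH CT-BMY and SEX4-like were not called (adjusted p = 0.256 and 0.148), and in NaCl only the PHS2 pair was called. Some NaCl misses were narrow, with an adjusted p of 0.0504 for the brighter PWD probe set and 0.0531 for the G. hirsutum GWD1 probe set.

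All arrays of a stress lay above all control arrays for 9 of the 9 probe sets in ABA (26.7% of all probe sets), cold (18.9%), mannitol (28%) and pH (30.7%), and for 7 in NaCl (7.16%). The median log2 difference of the 9 was 3.05 in ABA, 3.00 in mannitol, 2.46 in cold, 2.73 in pH and 1.52 in NaCl. That of all probe sets lay between -0.05 and -0.00. Quantile normalization keeps the latter small and the 9 were chosen for their rise, so this gap is a description. Control means of 6 of the 9 lay below the median of all signals and 2 of these below the lower quartile, ATPHS2 and the dimmer PWD probe set. When the arrays of control, cold and NaCl, which lie outside the common scale, were fitted by themselves, the median difference was 2.6 in cold and 1.54 in NaCl, but 0 of the 9 were called in cold or NaCl, with a lowest limma adjusted p of 0.0596 in cold and 0.226 in NaCl. At an unadjusted p under 0.05 that fit held 9 of the 9 in cold and 8 in NaCl, and over all probe sets it called 2 in cold and 0 in NaCl. The share of all probe sets at that unadjusted p was not computed for this fit.

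**Figure D2:**
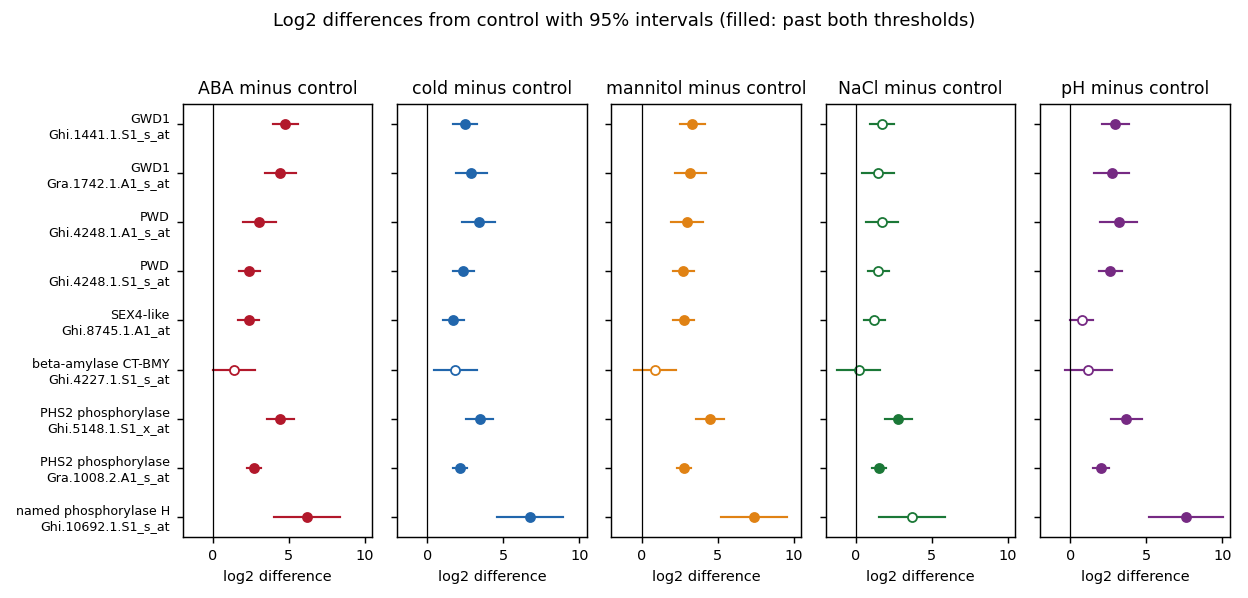
Log2 difference of each stress from control (x axis) for the 9 probe sets (y axis), 1 panel per stress, with 95% intervals from limma. Filled points passed both thresholds, and the 2 filled points in the NaCl panel are the PHS2 pair, at 2.78 and 1.52.

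The NaCl arrays did not lie together. NaCl replicate 2 was the highest of the 3 for 8 of the 9 probe sets, all but SEX4-like, and it lay within the range of the 3 cold arrays for 8 of the 9, all but starch phosphorylase. The gap from replicate 2 down to the next NaCl array was 4.66 for the probe set named isozyme H, 2.66 for CT-BMY and 1.81 for the dimmer PWD probe set, but 0.13 for ATPHS2 and 0.38 for starch phosphorylase. Taken singly, NaCl replicate 1 lay above all control arrays for 7 of the 9, replicate 3 for 8 and replicate 2 for 9. Without replicate 2 the count called up in NaCl was 5 of 9 (2.32% of all probe sets were), namely the PHS2 pair, the G. hirsutum GWD1 probe set, the brighter PWD probe set and isozyme H. Without replicate 3 it was 6 (1.24%) and without replicate 1 it was 3 (0.246%), and the PHS2 pair was called each time. Without replicate 2 the median difference of the 9 fell to 1.26, against 1.52 with all 3 arrays.

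**Figure D3:**
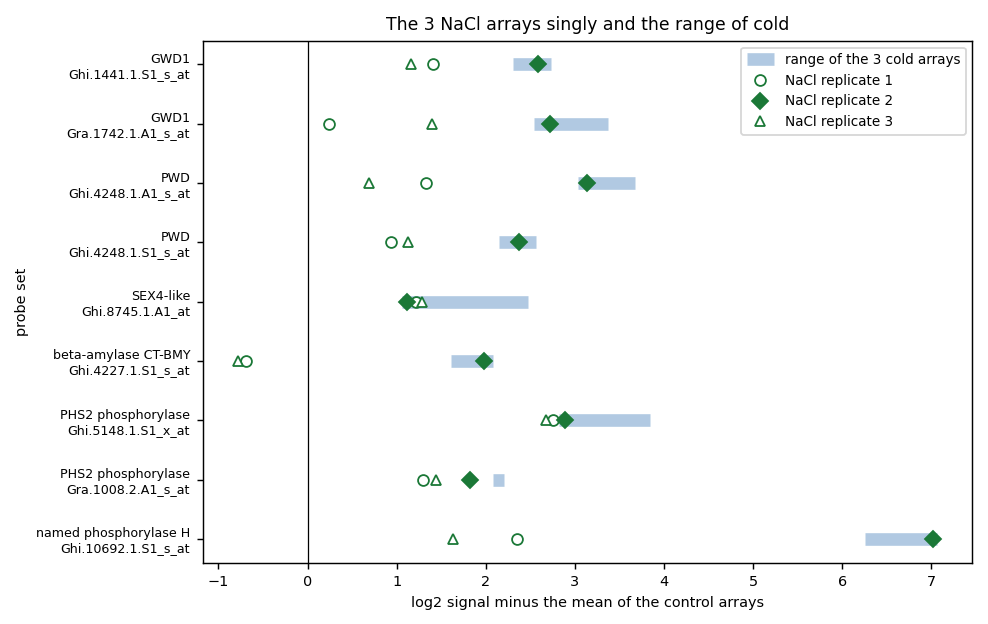
Log2 signal of each NaCl array minus the mean of the control arrays (x axis) for the 9 probe sets (y axis), with the range of the 3 cold arrays on the same scale as a blue band. Filled diamonds are NaCl replicate 2, which falls inside the band for 8 of the 9 probe sets.

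Comparisons between stresses were not the contrasts that chose the probe sets, but they reuse the stress arrays by which the choice was made. Their p-values are thus not independent of that choice, and contrasts with ABA for PWD and CT-BMY remain a description. Over 10 pairs of stresses, 22 differences among the 9 probe sets passed both thresholds in limma, and 6 of the 22 did so under every alternative run. These 6 were the G. hirsutum GWD1 probe set in ABA against cold and against NaCl, the G. raimondii GWD1 probe set in ABA against NaCl, ATPHS2 in ABA and in mannitol against NaCl, and SEX4-like in mannitol against NaCl. All 6 set an array group of the common scale against one outside it.

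GWD1 stood highest in ABA in each pair. For the G. hirsutum probe set the log2 mean was 11.66 ± 0.31 (SD, n = 3) in ABA and 9.35 ± 0.24 in cold (SD, n = 3), a difference of 2.31 (95% interval 1.51 to 3.11, limma adjusted p = 0.000913). Against NaCl its ABA level was higher by 3.05 (adjusted p = 0.000181), and by 2.99 for the G. raimondii probe set (adjusted p = 0.000989). Within the arrays of common scale the ABA excess of the G. hirsutum probe set was 1.43 over mannitol (adjusted p = 0.0483) and 1.82 over pH (adjusted p = 0.0273). For the G. raimondii probe set the excess in the same fit was 1.24 over mannitol and 1.72 over pH, and neither was called (adjusted p = 0.181 and 0.0946). The mannitol call of the G. hirsutum probe set was lost in 13 of the 17 fits that left out 1 array, with a highest adjusted p of 0.183, and its pH call in 4 of them, those without ABA replicate 1 or 2 or either pH array (highest adjusted p 0.20). The ABA, mannitol and pH arrays were also normalized and fitted alone, a fit chosen after seeing the data. There both GWD1 probe sets were higher in ABA than in mannitol, by 1.28 and 1.14 (limma adjusted p = 0.0104 and 0.00978). They exceeded pH by 1.62 and 1.6 (adjusted p = 0.00744 and 0.00551). These differences were smaller than in the fit to 17 arrays. The fit to fewer arrays called 1893 of all 24029 probe sets, up or down, in ABA against mannitol and 2191 in ABA against pH. In the fit to 17 arrays, 1 of the 9 was called higher in ABA than in mannitol (1.64% of all probe sets were), 2 than in pH (1.99%), 2 than in cold (11.4%) and 5 than in NaCl (11.6%). The G. raimondii probe set exceeded cold by 1.54 (adjusted p = 0.0321), a call that was lost without any 1 of the ABA arrays or without cold replicate 1 or 2 (highest adjusted p 0.105).

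SEX4-like set pH apart from mannitol and ABA, but was not called in pH against cold or NaCl. The probe set was higher in NaCl than in pH by 0.46 (limma adjusted p = 0.381), with overlapping arrays. Its log2 mean was 5.83 ± 0.60 in pH (SD, n = 2) and 7.86 ± 0.20 in mannitol (SD, n = 3), a difference of -2.03 (95% interval -2.80 to -1.26, limma adjusted p = 0.0231), and it was the only 1 of the 9 called in pH against mannitol, where 0.341% of all probe sets were called down. The call held in the fit to the ABA, mannitol and pH arrays alone, at -2.0 (adjusted p = 0.0265), where 561 of all probe sets were called up or down. It was lost without any 1 of the mannitol arrays (highest adjusted p 0.113) or without pH replicate 1, at a difference of -1.61. ABA exceeded pH by 1.61 (adjusted p = 0.0242), which was lost without ABA replicate 1 or 2 or pH replicate 1 (highest adjusted p 0.233). Mannitol exceeded cold by 1.06 (adjusted p = 0.0291), the 1 call of the 9 in that pair, where 10.1% of all probe sets were called up, and it was lost without cold replicate 2 or 3 or mannitol replicate 1 or 3 (highest adjusted p 0.121). Mannitol exceeded NaCl by 1.56 (adjusted p = 0.00374).

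For the PHS2 pair, ABA and mannitol did not differ detectably. ABA minus mannitol was -0.06 for ATPHS2 (95% interval -0.96 to 0.84) and -0.06 for starch phosphorylase (95% interval -0.53 to 0.40), which leaves room for a fold of nearly 2 for ATPHS2. Against NaCl, ATPHS2 was higher by 1.66 in ABA and 1.72 in mannitol (limma adjusted p = 0.0115 and 0.00974), and starch phosphorylase by 1.2 and 1.27 (adjusted p = 0.00177 and 0.00131). With an offset of 32 added to the signals, both differences of starch phosphorylase were under 2-fold, at 0.91 and 0.97, and its ABA call was also lost in a fit to only the 2 compared groups (adjusted p = 0.0628). In mannitol against NaCl, 7 of the 9 were called higher, where 11% of all probe sets were, and the other two were the dimmer PWD probe set and CT-BMY. Without NaCl replicate 1 the count was 4 (10.4% of all probe sets were called higher). Without NaCl replicate 2 it was 9 for mannitol (14%) and 9 for ABA against NaCl (13.7%).

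PWD differed little among ABA, cold, mannitol and pH. For the brighter probe set the 6 differences among these conditions lay between -0.34 and 0.38, and the 95% interval of mannitol minus cold ran from -0.30 to 1.05. The brighter PWD probe set was lower in NaCl than in mannitol, which exceeded it by 1.27 (limma adjusted p = 0.0106). This call was lost without NaCl replicate 1, at a difference of 0.99, and in a fit to only the 2 compared groups (adjusted p = 0.112). In addition, pH exceeded NaCl by 1.16 (adjusted p = 0.0316), a call lost without NaCl replicate 1 or 3 or either pH array (highest adjusted p 0.162). CT-BMY passed in no pair. Its largest difference between stresses was cold minus NaCl, 1.68 (95% interval 0.29 to 3.07, adjusted p = 0.180), and without NaCl replicate 2 it was higher in cold, mannitol and pH than in NaCl, by 2.59, 1.64 and 1.92 (adjusted p = 0.00270, 0.0202 and 0.0170). Without NaCl replicate 1 it was called in none of these pairs. The probe set named isozyme H was higher in mannitol than in NaCl by 3.70 (adjusted p = 0.0173) and in pH by 3.95 (adjusted p = 0.0251). The first call was lost without mannitol replicate 1 or NaCl replicate 1 or 3, and the second without NaCl replicate 1 or 3 or either pH array. In pH against NaCl 3 of the 9 were called higher (10.3% of all probe sets), and 0 without any 1 of NaCl replicate 1, NaCl replicate 3 or the pH arrays, but 6 without NaCl replicate 2.

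In cold against NaCl and in pH against cold, 0 of the 9 were called by limma, where 0.162% and 9.93% of all probe sets were called up. At an unadjusted p under 0.05, 6 of the 9 passed in cold against NaCl, where 20.3% of all probe sets did. In pH against cold 1 of the 9 did, where 34% of all probe sets did. Without NaCl replicate 2, cold exceeded NaCl for 6 of the 9 (8.98% of all probe sets), by 4.73 for the probe set named isozyme H, 2.59 for CT-BMY, 2.38 and 1.33 for PWD and 1.17 and 2.10 for GWD1, while the PHS2 pair and SEX4-like were not called. Replicate 2 was the highest NaCl array for 8 of the 9, so that its removal widens their gaps. Without NaCl replicate 1 or 3, 0 of the 9 were called, where 0.0499% and 0.0874% of all probe sets were called up.

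**Figure D4:**
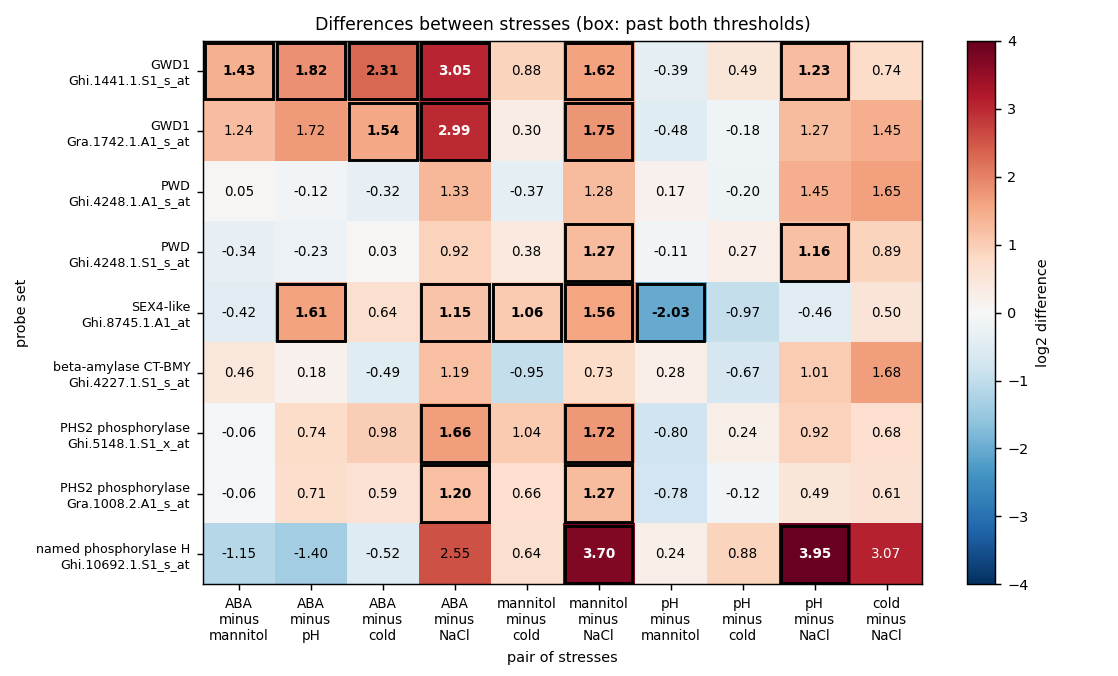
Log2 difference between stresses for the 9 probe sets (rows) over the 10 pairs (columns), with the value in each cell, red for higher and blue for lower in the first-named stress. Boxes mark the 22 differences past both thresholds, which include 4 of ABA over another stress for the G. hirsutum GWD1 probe set and 1 below zero, -2.03 for SEX4-like in pH minus mannitol.

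The order of the 5 stress means differed between probe sets, mostly by steps that were not called. The highest mean lay in mannitol for 4 probe sets (the PHS2 pair, the brighter PWD probe set and SEX4-like), in ABA for the GWD1 pair, in cold for the dimmer PWD probe set and CT-BMY, and in pH for the probe set named isozyme H. The lowest lay in NaCl for 8 and in pH for SEX4-like. Between neighbours in these orders, among the stresses alone, only the G. hirsutum GWD1 probe set in ABA over mannitol passed the test (adjusted p = 0.0483, limma).

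Over the 17 arrays the 36 pairs of the 9 profiles correlated with r from 0.41 to 0.98 and a median of 0.84, given as a description, since the profiles share the arrays and the rise over control. After the condition means were removed the median was 0.49, and without the NaCl arrays, over the 14 others, it was -0.01, with a range from -0.68 to 0.89. The pairs named for the same protein stayed close in those 14 arrays after the same step, with r 0.89 for GWD1, 0.87 for PWD and 0.77 for PHS2. CT-BMY followed GWD1 there, with r 0.72 for the G. hirsutum probe set and 0.72 for the G. raimondii probe set, and control replicate 2 was the lowest control array for all 3 of these. Of the other named probe sets, the 5 nearest to the mean profile of the 9 were a rice-like unknown protein (r 0.971), a zinc-binding oxidoreductase (r 0.967), a mitochondrial energy transfer protein (r 0.958), the protein kinase CIPK6 (r 0.933) and elongation factor 1 beta (r 0.931). In all, 82 of 24017 probe sets outside the 9 and their clusters reached r 0.9.

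A further 3 probe sets carry the cluster name of one of the 9 and did not share its profile. The one from the cluster of the G. raimondii GWD1 probe set was at 2.34, 2.88 and 3.31 in ABA and 3.55, 3.29 and 3.67 in control, a difference of -0.66, where the GWD1 probe set had 4.44. Its ID carries the strand tag S1, where that of the GWD1 probe set carries A1. The other two come from the cluster of starch phosphorylase. Over the 5 stresses one of them differed from control by -0.75 to 0.00 and the other by -0.39 to 1.4. By limma 0 of the 3 were called in any stress, and at an unadjusted p under 0.05 there was 1 in cold and 0 in the other stresses. Of all probe sets, 29.3% were under this p in cold and 14.9% to 39.1% in the other stresses. Control means of the 3 were 3.5, 4.5 and 1.46, so that 2 of them lay under the lower quartile of signals. Probe sets whose names end in _s_at or _x_at can also bind related transcripts, which holds for 8 of the 9.

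A different phosphorylase was higher in every ABA, mannitol and pH array than in any cold array. It is similar to the plastid enzyme of Arabidopsis, PHS1, and was taken from the study's list of rises in ABA, so that its ABA value is no independent evidence. Its log2 signals were 9.88, 10.34 and 9.96 in ABA, 10.12, 9.39 and 10.07 in mannitol, 7.66, 7.52 and 7.5 in cold, 8.95 and 8.66 in pH, 9.55, 7.25 and 9.22 in NaCl, and 7.86, 7.84 and 7.76 in control. The cold arrays lay below all control arrays, and NaCl replicate 2 lay with them and away from its 2 partners. Mannitol exceeded cold by 2.29 (95% interval 1.32 to 3.27, limma adjusted p = 0.00327), where 10.1% of all probe sets were called up. Scale and treatment cannot be told apart in that pair. Cold differed from control by -0.26 (adjusted p = 0.748). Without NaCl replicate 2, NaCl exceeded control by 1.56 (adjusted p = 0.00692), against 0.86 with all 3 NaCl arrays (adjusted p = 0.395). Without NaCl replicate 1 the excess was 0.41 (limma adjusted p = 0.747). A second probe set that the array annotation gives to the same gene (LOC107892378) was added after the values of the first were seen. It was called up in ABA (3.10, adjusted p = 0.0114) and mannitol (3.17, adjusted p = 0.00954) and not in cold (0.25, adjusted p = 0.868), and mannitol exceeded cold by 2.92 (adjusted p = 0.0174). Its control signals, 1.74, 3.02 and 3.39, lay below the lower quartile of all signals. Over the 17 arrays it had r 0.66 with the first probe set. Its NaCl arrays read 2.39, 5.07 and 5.90, and here replicate 2 lay between its 2 partners.

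**Figure D5:**
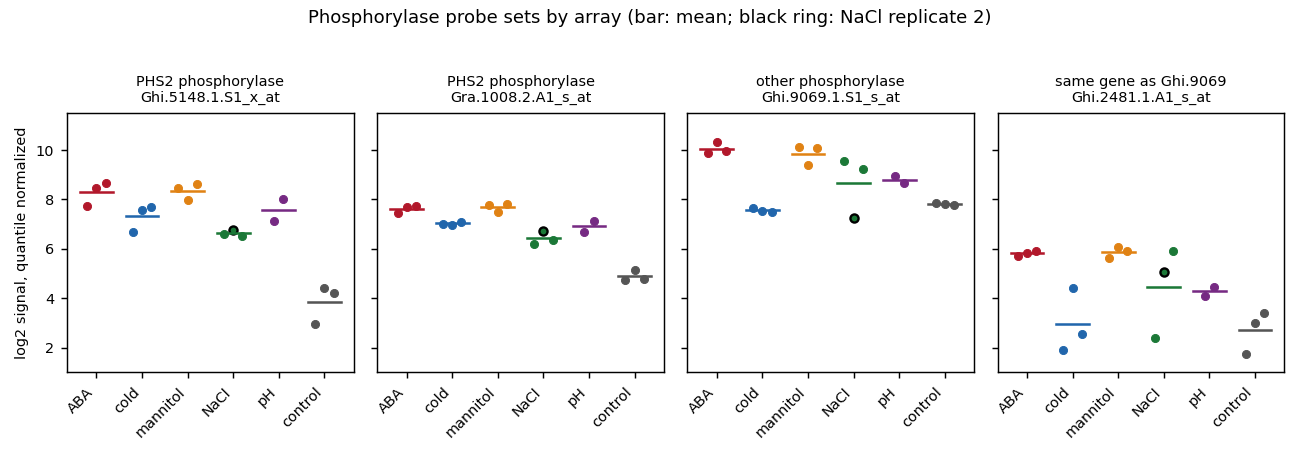
Log2 signal after quantile normalization (y axis) of 4 phosphorylase probe sets in each array by condition (x axis), with means as bars and NaCl replicate 2 ringed in black. The PHS2 pair is above control in cold, whereas the PHS1-like probe set, labelled other phosphorylase, is at 7.5 to 7.66 in cold and 7.76 to 7.86 in control.

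The other starch and sugar probe sets came from the same ABA list, and their calls in ABA are no independent evidence of a rise. Of 4 further breakdown probe sets, 4 were called up in ABA, 4 in mannitol, 2 in cold, 2 in pH and 0 in NaCl, and none was called down, beside the shares of all probe sets given above. The alpha-amylase-like probe set differed from control by 2.17 in ABA, 2.98 in mannitol, 2.10 in cold, 2.6 in pH and 0.95 in NaCl. The debranching enzyme ISA3 differed by 1.31 in ABA, 1.6 in mannitol, 1.03 in cold, 0.89 in pH and 0.02 in NaCl. A probe set described as a protein with a starch-binding domain and matched to an earlier version of the Arabidopsis PWD record differed by 2.32 in ABA, 2.80 in mannitol, 3.09 in cold, 2.73 in pH and 1.35 in NaCl, and its NaCl arrays were 3.55, 7.63 and 6.25.

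Among 5 probe sets of starch synthesis and sugars, 4 were called up in ABA, 2 in mannitol, 1 in cold, 2 in pH and 1 in NaCl. Starch branching enzyme SBE2.2, which builds starch rather than degrading it, was at 4.07 to 4.64 in ABA, 5.0 to 5.23 in mannitol, -2.01 to 2.17 in cold, 5.33 and 5.98 in pH, -1.21 to 2.92 in NaCl and -0.91 to 1.78 in control. It was called up in ABA, mannitol and pH by 3.99, 4.72 and 5.23, from control signals at the bottom of the array's range. Phosphoglucomutase, which interconverts the glucose phosphates, was the 1 probe set called in NaCl, by 1.95 (adjusted p = 0.0447, limma), with 7.85, 6.35 and 6.91 in NaCl and 5.11, 4.39 and 5.75 in control. This call was lost without any 1 of the ABA, mannitol, pH or control arrays and without cold replicate 1 or 2, when 0 of the 9 further starch and sugar probe sets were called in NaCl. The phosphoglucomutase call was also lost without NaCl replicate 1, at 1.58 (limma adjusted p = 0.108). In that fit the starch-binding domain probe set was called instead, by 2.52 (adjusted p = 0.00987). The sugar porter was called up by 1.58 in ABA and 1.46 in mannitol, and trehalose-phosphatase by 1.6 in ABA. The hexose transporter passed in no stress, with differences from 0.51 in pH to 1.46 in cold.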

How the data were processed

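RNA from 17 cotton seedling samples was hybridised to the Affymetrix Cotton Genome Array, and the signal intensities as deposited by the authors were MAS5 values on a linear scale, 1 per probe set and array, with the scaling between arrays not given in the sources used here. Depth has no meaning for arrays, and precision is limited by 2 or 3 arrays per condition. One label protocol speaks of pairs of dyes, but each array has 1 channel of signal.

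From these signals, log2 values of 24029 probe sets (24132 less 103 Affymetrix controls) were quantile normalized over the 17 arrays, with no offset and no filter on low values. Groups came from the labels. limma 3.58.1 in R 4.3.3 was fitted with 1 coefficient per condition, and p-values were adjusted by the Benjamini-Hochberg method over all probe sets for each contrast. Probe sets were called at a fold of at least 2 and an adjusted p of at most 0.05. The study's methods used another test (SAM), which was not run here. The fit was tested on simulated data. Figures were drawn with matplotlib 3.10.9.

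The 9 probe sets and the lists of other starch and sugar genes were chosen with earlier results of these data known. The text names the 9, the other probe sets of their clusters and of the lists, and the 5 named probe sets whose profile over the 17 arrays lay nearest to theirs. Names came from the target descriptions and the study's tables, with 1507 probe sets named in all. A search of the names for further starch enzymes added none. None of the 9 was in the array annotation used here, and no sequence of them is printed.

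Alternatives were other scalings, an offset, a filter on low signals, fits to fewer groups, a variance trend, a replicate block and the removal of each array. The fits to the arrays of control, cold and NaCl alone and of ABA, mannitol and pH alone were chosen after seeing the data.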

Additional observations from a re-analysis of the deposited data

How the results depend on the processing

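For the 9 probe sets in ABA and mannitol against control, no call was lost under any alternative that could be run. Both contrasts set arrays of the common scale against arrays outside it. No fit within 1 set of arrays, as made for cold and NaCl, was therefore possible for them, and the conditions cannot be compared on this. In cold, the count of 8 called up became 1 without rescaling and 0 in the fit to control, cold and NaCl alone. In NaCl, the count of 2 became 0 without rescaling, with control, cold and NaCl alone and with only the 2 compared groups, and 4 with the lowest 25% of signals left out and with a variance trend. The CT-BMY difference in NaCl, 0.17, turned to -0.68 without rescaling, -0.38 without control replicate 2 and -0.74 without NaCl replicate 2, and its highest value with 1 array left out was 0.64, without NaCl replicate 3. Deposited signals without rescaling leave the scale difference between the 2 sets of arrays in each contrast across them.

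Counts of the 9 called between stresses depended more on the setting. For most alternatives the share of all probe sets called was not computed. The counts in this section are thus not read as results about the 9. With 2% trimmed mean scaling they were 0 for ABA against mannitol, 1 for ABA against pH, 4 for ABA against cold and 3 for mannitol against cold. With median centring they were 0 for ABA against mannitol, 1 for ABA against pH, 0 for mannitol against cold, 0 for pH against mannitol and 1 for pH against NaCl. Without rescaling they were 0 for ABA against mannitol, 0 for ABA against pH, 0 for pH against mannitol, 7 for ABA against cold, 9 for ABA against NaCl, 7 for mannitol against cold, 6 for pH against cold and 9 for pH against NaCl. With an offset of 32 they were 2 for ABA against mannitol, 3 for ABA against NaCl and 0 for mannitol against cold. With only the 2 compared groups they were 2 for ABA against mannitol, 1 for ABA against pH, 3 for ABA against NaCl, 0 for mannitol against cold, 3 for mannitol against NaCl, 0 for pH against mannitol and 0 for pH against NaCl. In the fit to ABA, mannitol and pH alone, 2 were called in ABA against mannitol, where 1893 of all probe sets were called up or down. The cause of these shifts was not tested.

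With each array left out in turn, the counts of the 9 ranged from 2 to 6 for NaCl against control, 0 to 2 for ABA against mannitol, 0 to 3 for ABA against pH, 1 to 2 for ABA against cold, 4 to 9 for ABA against NaCl, 0 to 1 for mannitol against cold, 4 to 9 for mannitol against NaCl, 0 to 1 for pH against mannitol, 0 to 1 for pH against cold, 0 to 6 for pH against NaCl and 0 to 6 for cold against NaCl. Both the 6 in pH against NaCl and the 6 in cold against NaCl came without NaCl replicate 2, where 13.1% and 8.98% of all probe sets were called up.

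The 3 same-cluster probe sets were called without rescaling in ABA (3), mannitol (3) and pH (3), and 1 of them in cold with 2% trimmed mean scaling. For the 9 other starch and sugar probe sets, the count in NaCl, 1, became 0 with 2% trimmed mean scaling, median centring, no rescaling, control, cold and NaCl alone, only the 2 compared groups and the replicate block, and ranged from 0 to 3 with 1 array left out. Their count in ABA, 8, was 4 with an offset of 32 and 4 to 9 with 1 array left out, that in cold, 3, was 0 without rescaling and 0 with control, cold and NaCl alone, and that in pH, 4, was 9 without rescaling and 1 to 4 with 1 array left out.

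Samples that share a replicate number did not deviate together, with r from -0.18 to 0.20 over 40 pairs. Pairs of different numbers were not compared, so whether the numbers pair the samples was not settled. With a replicate block the counts of the 9 were 0 for ABA against mannitol, 2 for mannitol against cold, 0 for pH against mannitol and 1 for pH against NaCl, and 0 of the other starch and sugar probe sets were called in NaCl. Of 1139 values of single differences with 1 array left out, 1063 kept their direction and their side of the threshold, and 487 of 558 did so under the other alternatives.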
